A study of Mus musculus with 721 samples.

Results

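The primitive endoderm (PrE) and the epiblast of the mouse blastocyst at embryonic day 4.5 (E4.5) were compared within the same embryos. Of the 721 cells in the series, 79 E4.5 cells were taken as PrE and 26 as epiblast. Together these are all E4.5 cells that passed the study's filters. Those filters removed wells with few genes, many mitochondrial reads or multiple cells beyond doubles, and cells with trophoblast markers. A cell was called PrE when its mean log2(CPM + 1) over Dab2, Lama1, Lamb1, Lamc1, Cubn and Amn was above its mean over Sox2, Fgf4, Dnmt3b, Dnmt3l and Dppa4, and epiblast otherwise, where CPM is the usual depth-scaled count of a cell (counts of a gene over all counts, in ppm). Slc7a3, named with these 11 genes, lies on the X chromosome and was not analysed here. All cells came from 5 wild-type C57Bl/6Babr embryos that received no treatment. The trophectoderm, the outer layer of the blastocyst, had been removed by immunosurgery, and the remaining inner cells were picked by hand into wells labelled single or double and sequenced by Smart-seq2 within the G&T-seq protocol. The series as a whole followed inner cell mass, epiblast and endoderm from E3.5 to E6.5 to ask how cells leave pluripotency and take on a fate.

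Epiblast cells give rise to the embryo proper, while PrE cells sort to the surface that faces the blastocyst cavity, form an epithelium on a basement membrane and become the visceral and parietal endoderm of the yolk sacs. In the textbook account, Fgf4 from epiblast precursors acts through FGF receptors and the ERK kinases on neighboring cells, which turn on Gata6 and then Sox17, Gata4 and Sox7, while Nanog holds the epiblast state. Extraembryonic endoderm is known for secretion of matrix and carrier proteins and for uptake of maternal proteins through large endocytic receptors before a placenta exists.

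PrE cells made up 66.7 to 79.4% of the filtered cells of an embryo, with 12, 12, 9, 27 and 19 PrE cells and 6, 4, 4, 7 and 5 epiblast cells in embryos 1 to 5. Embryos 1 and 2 were labelled plate P1 and embryos 3, 4 and 5 plate P2. The difference of the 2 means ran from 0.797 to 8.05 on the log2 scale in PrE cells (median 6.04) and from −6.47 to −2.10 in epiblast cells (median −4.57). Cells nearest to the line were 4 PrE cells at 0.797, 1.36, 1.39 and 1.97 (from embryos 3, 5, 5 and 2, of which those at 0.797 and 1.97 came from wells labelled double), and each of them held 730 to 1569 CPM of the epiblast gene Tdgf1. The nearest epiblast cell lay at −2.10. The differences chose the cells and are given as a description. Of the 4 PrE cells, the one at 0.797 held 0 CPM of Gata6, 3.45 of Pdgfra and 121 of Nanog. The one at 1.39 held 2.09 CPM of Pdgfra and 520 of Nanog. Those at 1.36 and 1.97 held 117 and 236 CPM of Pdgfra and 0 and 45.2 of Nanog. The study left E4.5 cells that expressed markers of both lineages out of its later analyses. Here all filtered E4.5 cells were kept, so the classes can differ from those of the study. PrE cells held a median of 755266 counts and 7257 detected genes and epiblast cells 657310 counts and 6891 genes, and 31 of the 79 PrE cells and 7 of the 26 epiblast cells came from wells labelled double. The part of depth and of double wells in the differences was not tested beyond the fits to single wells and to equal numbers of cells given below. Genes with too few counts for such a fit were not tested in it and are not listed there as lost.

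**Figure D1:**
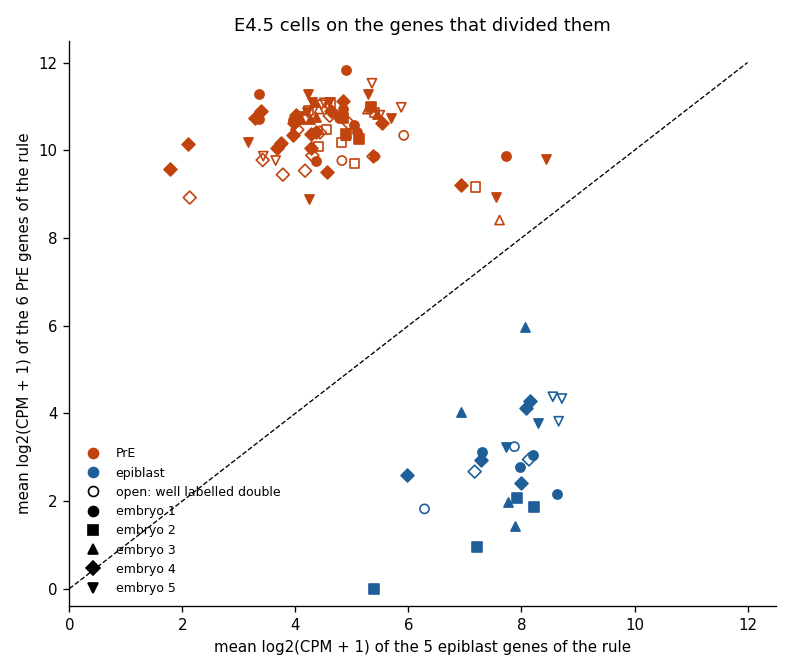
Each point is 1 of the 79 PrE and 26 epiblast cells, plotted by its mean log2(CPM + 1) over the 5 epiblast genes (x axis) and the 6 PrE genes (y axis) that divided the cells, with the dashed line at equality, color for the class, shape for the embryo and open symbols for wells labelled double. 4 PrE cells lie within 2 of the line and no epiblast cell does.

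The 6 PrE genes of the rule and Sox2, Fgf4 and Dppa4 were apart in every embryo, as the rule makes likely. Cubn, the receptor subunit that binds vitamin B12 carrier and albumin, ranged over 0 to 20.2 CPM in the epiblast sums and over 1826 to 4459.5 CPM in the PrE sums. Among the epiblast genes of the rule, Dnmt3b went the other way. Dnmt3b encodes a de novo DNA methyltransferase, and its summed level was 450.9, 331, 317, 527 and 585 CPM in the epiblast and 701, 745, 524, 542 and 392 CPM in the PrE of embryos 1 to 5. It was thus higher in PrE cells in 4 of the 5 embryos, and the 2 groups overlapped. Dnmt3l, its partner without catalytic activity, was higher in the epiblast of each embryo, with groups that also overlapped (343 to 1021 CPM against 112 to 371 CPM). No test is given for these 11 genes.

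Marker genes that the rule did not use sided with the class names. Pdgfra, Gata6, Gata4, Sox17, Sox7, Foxa2, Col4a1, Col4a2, Sparc, Srgn and Lrp2 were all higher in PrE cells, and Nanog, Esrrb, Tdgf1, Pou5f1, Utf1, Gdf3 and Otx2 were higher in epiblast cells. Fgf5 and Zfp42 did not pass. Since the cells were divided on lineage genes, any gene tied to that axis differs with the division, and the differences below are measurements between classes so defined. For each embryo the PrE counts and the epiblast counts were added up and compared as 5 pairs by edgeR's quasi-likelihood test. Log2 fold changes are PrE over epiblast and carry an approximate standard error. It was computed as the absolute log2 fold change over the square root of the test's F statistic. The p values are adjusted over the 10040 genes tested by the method of Benjamini and Hochberg. Levels are CPM of the sums after TMM scaling, in the order of embryos 1 to 5. Embryos, which are separate animals, are the replicates. Where groups are said not to overlap, the share of all genes tested that do not overlap is not given here. Most named genes were called and ranked by fold change, so a lack of overlap describes their values and is no trait of a family. CPM are shares of the counts and not RNA per cell, so a larger share and fewer competing transcripts cannot be told apart, and intervals and lower limits below cover counting error only, as reads carried no molecular identifiers.

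With the limit for the adjusted p set at 0.05, 991 genes (9.87% of those tested) were higher in PrE cells and 684 genes (6.81%) in epiblast cells. With a log2 fold change beyond 2 as well, 670 genes (6.67%) were higher in PrE cells and 310 genes (3.09%) in epiblast cells, and the median over all genes tested was 0.23. Leaving out embryo 1 reduced the 1675 genes to 971 and the 980 genes to 601, and leaving out embryo 4 reduced the 1675 genes to 1089. Cells from wells labelled single alone gave 910 and 603 genes. No gene called here was called in the opposite direction in any of 16 alternatives. Counts of the lists below use the adjusted p alone and stand beside 9.87% (PrE) and 6.81% (epiblast). Where calls are near these shares, they are given for the genes and not as a trait of the list.

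Pdgfra, the receptor for platelet-derived growth factor A (ENSMUSG00000029231, chromosome 5, 75152292 to 75198215 in GRCm38), led the named genes of the PrE side. It had 0 CPM in every embryo of the epiblast and 271, 254, 187, 172 and 182 CPM in the PrE, which is at least 1096-fold higher in PrE cells, adjusted p = 2.50e-04. Hesx1, a homeodomain repressor known from the forebrain and pituitary, followed with 90.6, 72.5, 133, 199 and 157 CPM in the PrE and no count in any epiblast cell (at least 932-fold higher in PrE cells, adjusted p = 5.83e-04). Dram1, a lysosomal membrane protein of autophagy, was also without a count in the epiblast and at 89.3 to 147 CPM in the PrE (at least 729-fold higher in PrE cells, adjusted p = 7.17e-04). The same held for B3galnt1 (glycosphingolipid synthesis, at least 615-fold), Pla2g12b (lipoprotein secretion, at least 478-fold), Ubash3b (a tyrosine phosphatase, at least 429-fold), Fam134b (a receptor for autophagy of the endoplasmic reticulum, at least 381-fold) and Bmper (a BMP-binding secreted protein, at least 273-fold). Bag2, a co-chaperone of Hsp70, had 2 counts in the epiblast (ratio of summed CPM 1056, 95% counting interval 292 to 8720.4, adjusted p = 1.06e-04). In all of these 9 genes the 5 PrE values lay above the 5 epiblast values. The choice by rank of fold change and the same direction in all embryos makes this likely.

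The genes that led the epiblast side were of other kinds. They were chosen by the same rule, which makes separate groups likely. Nlrp4f, of an oocyte and early embryo family of NLR proteins, had 57.4, 23.0, 55.0, 77.2 and 72.8 CPM in the epiblast and 0.159, 0, 22.7, 0 and 2.50 CPM in the PrE (log2 fold change −6.50 ± 1.63, adjusted p = 0.0243). Rasgrp2, an exchange factor that activates Rap1, had 203, 205, 119, 85.6 and 88.3 CPM in the epiblast and 3.34, 1.11, 3.17, 0.384 and 9.46 CPM in the PrE (log2 fold change −5.87 ± 0.73, adjusted p = 9.44e-04). Phlda2, an imprinted gene that limits placental growth, had 63.2, 248, 35.3, 50.6 and 79.5 CPM in the epiblast and 10.7, 3.32, 1.58, 0 and 1.06 CPM in the PrE (log2 fold change −5.70 ± 1.09, adjusted p = 0.00765). Groups did not overlap in any of these 3. Liph, a phosphatidic acid lipase (log2 fold change −6.38 ± 1.25), the tight junction gene Cldn4 (−6.03 ± 1.13), the retinoic acid receptor Rarg (−5.62 ± 1.10), the nucleoside transporter Slc28a1 (−5.57 ± 1.29), the phosphatidylinositol transfer protein Pitpnc1 (−5.55 ± 0.92) and the zinc finger gene Zfp423 (−5.47 ± 0.59) likewise did not overlap. Aoah, an acyloxyacyl hydrolase, was higher in the epiblast of each embryo but overlapped (0.606 to 101 CPM against 0 to 12.9 CPM, log2 fold change −5.91 ± 1.52). On leaving out 1 embryo the adjusted p passed 0.05 for Nlrp4f (embryo 1 or 2, up to 0.0902 without embryo 1), Aoah (embryo 1, 4 or 5, up to 0.0785 without embryo 1) and Slc28a1 (0.0621 without embryo 1). Slc28a1 (adjusted p = 0.100) in wells labelled single alone did not pass.

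Of 20 endoderm transcription factors listed, 15 were tested, and 12 were higher in PrE cells, 1 in epiblast cells and 2 did not pass. The median log2 fold change of the 15 was 5.79 (5.70 with genes at 0 in the epiblast set to their lower limit), beside 0.23 over all genes. Gata4, a zinc finger activator of endoderm genes (ENSMUSG00000021944, chromosome 14, 63198922 to 63271692), had 0, 0, 0.346, 0.535 and 0.449 CPM in the epiblast and 277, 243, 349, 219 and 198 CPM in the PrE (log2 fold change 9.49 ± 0.49, adjusted p = 1.06e-05). Gata6, which starts the PrE program, had 0, 0, 7.61, 4.81 and 0 CPM in the epiblast and 140.5, 202, 239.7, 187 and 143 CPM in the PrE (log2 fold change 6.83 ± 0.88, adjusted p = 0.00109). Neither gene overlapped between groups, and Gata6 was above 10 CPM in 76 of 79 PrE and 2 of 26 epiblast cells.

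The forkhead pioneer factor Foxa2 (6.62 ± 1.08 on the log2 scale), Sox7 (5.79 ± 0.94) and Sox17 (5.70 ± 0.94) were separated in all 5 embryos as well. Foxa3, a forkhead gene of the liver and gut, and Lhx1, a LIM homeobox gene of the later anterior visceral endoderm, had no count in the epiblast. Foxa3 reached 2.81 to 13.1 CPM in the PrE (at least 58.1-fold higher in PrE cells, adjusted p = 0.0361) and Lhx1 2.29 to 8.63 CPM (at least 37.6-fold higher in PrE cells, adjusted p = 0.0413). These 2 genes were at low level, with Foxa3 above 10 CPM in 13 of 79 and Lhx1 in 17 of 79 PrE cells, and calls were lost without 1 embryo for Foxa3 (any of the 5, up to 0.0847 without embryo 1) and Lhx1 (any of the 5, up to 0.0892 without embryo 1). The member higher in epiblast cells was Grhl2, an activator of epithelial junction genes, at 101, 151, 70.2, 164 and 169 CPM in the epiblast and 9.24, 11.1, 31.8, 7.42 and 19.09 CPM in the PrE (log2 fold change −3.23 ± 0.50, adjusted p = 0.00289). Lhx1 (adjusted p = 0.0674) in wells labelled single alone did not pass.

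Of 19 naive pluripotency factors listed, 18 were tested, 10 were higher in epiblast cells and 2 in PrE cells, with a median log2 fold change of −1.30. The 10 became 6 without embryo 2 and 6 without embryo 4. Esrrb, an orphan nuclear receptor, had 128, 76.9, 114, 56.0 and 158 CPM in the epiblast and 5.73, 7.30, 18.5, 2.24 and 8.35 CPM in the PrE (log2 fold change −3.89 ± 0.45, adjusted p = 6.20e-04). Klf2, a Kruppel-like factor of naive cells, had 106, 70.9, 122, 56.3 and 68.9 CPM against 7.33, 0.442, 3.52, 1.28 and 17.7 CPM (log2 fold change −4.61 ± 0.76, adjusted p = 0.00398), and Gbx2, a homeobox gene downstream of LIF, had 36.6, 40.0, 77.8, 31.6 and 56.4 CPM against 1.27, 8.85, 9.67, 1.05 and 1.22 CPM (log2 fold change −4.09 ± 0.74, adjusted p = 0.00604). None of these 3 overlapped. Klf2 (adjusted p = 0.178) in wells labelled single alone did not pass.

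Nanog had 103, 114, 136, 90.6 and 31.2 CPM in the epiblast and 2.87, 5.09, 12.3, 2.14 and 40.1 CPM in the PrE (log2 fold change −3.88 ± 0.89, adjusted p = 0.0169). It was higher in the epiblast of 4 embryos, while in embryo 5 the PrE value was above the epiblast value. One PrE cell of embryo 5 near the dividing line held 520 CPM of Nanog in 1434029 counts, and most Nanog counts of that PrE sum came from this cell. With cells at least 2 from the line alone, the log2 fold change of Nanog was −6.55. Pou5f1 (Oct4) was detected on both sides, with 2254, 1716, 1517, 1015 and 1649.6 CPM in the epiblast and 692, 831, 741, 577 and 298 CPM in the PrE (log2 fold change −1.41 ± 0.23, adjusted p = 0.00383), and the groups did not overlap. Dppa3 (Stella), a maternal factor that protects DNA methylation, overlapped, at 94.8 to 523 CPM in the epiblast and 10.2 to 127 CPM in the PrE (log2 fold change −2.70 ± 0.47, adjusted p = 0.00494). Nr5a2, a nuclear receptor that can act at the Pou5f1 gene, was at 7.49 to 33.5 CPM against 0 to 5.98 CPM (log2 fold change −5.06 ± 1.36, adjusted p = 0.0326). On leaving out 1 embryo the adjusted p passed 0.05 for Nanog (embryo 1, 2 or 4, up to 0.0730 without embryo 1) and Nr5a2 (embryo 1, 2, 4 or 5, up to 0.0790 without embryo 1). Nanog (adjusted p = 0.0896) in wells labelled single alone did not pass.

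Tbx3 and Klf5, both members of the naive list, were higher in PrE cells. Tbx3, a T-box repressor, had 23.1, 32.7, 22.1, 29.2 and 12.8 CPM in the epiblast and 87.6, 144, 94.3, 80.0 and 79.4 CPM in the PrE (log2 fold change 2.04 ± 0.34, adjusted p = 0.00410). Klf5 had 83.6, 99.9, 194, 81.7 and 150.2 CPM in the epiblast and 275, 372, 485, 245 and 211 CPM in the PrE (log2 fold change 1.40 ± 0.24, adjusted p = 0.00433). Both were without overlap. Tbx3 is also known from extraembryonic endoderm differentiation and Klf5 from the trophectoderm and inner cell mass of the blastocyst. Zfp42 (Rex1), a naive marker, did not pass (48.9 to 173 CPM in the epiblast against 107 to 195 CPM in the PrE). Tbx3 (adjusted p = 0.0793) in wells labelled single alone did not pass.

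Among formative and primed epiblast factors, 15 of 19 listed were tested, 9 were higher in epiblast cells and none in PrE cells, with 6 that did not pass and a median log2 fold change of −2.36. Otx2, the homeobox factor of formative epiblast, had 164, 122, 90.9, 97.9 and 99.04 CPM in the epiblast and 0.637, 0.442, 11.1, 4.09 and 8.08 CPM in the PrE (log2 fold change −5.07 ± 0.84, adjusted p = 0.00409). Sall3, a spalt zinc finger gene, had 50.1, 52.1, 21.1, 16.2 and 6.29 CPM against 0.159, 0, 0, 0.0639 and 0.798 CPM (log2 fold change −7.45 ± 1.42, adjusted p = 0.00741). Utf1, a chromatin factor of pluripotent cells, differed less (544, 399.7, 521, 425 and 373 CPM against 369, 172, 183, 158 and 103 CPM, log2 fold change −1.32 ± 0.21, adjusted p = 0.00302). The 5 values of each class were apart in all 3. Fgf5, the classical marker of the primed epiblast, was in both classes and did not pass, with 75.5, 48.4, 0, 0 and 4.27 CPM in the epiblast and 90.6, 23.4, 10.4, 16.0 and 11.3 CPM in the PrE (adjusted p = 0.346).

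**Figure D2:**
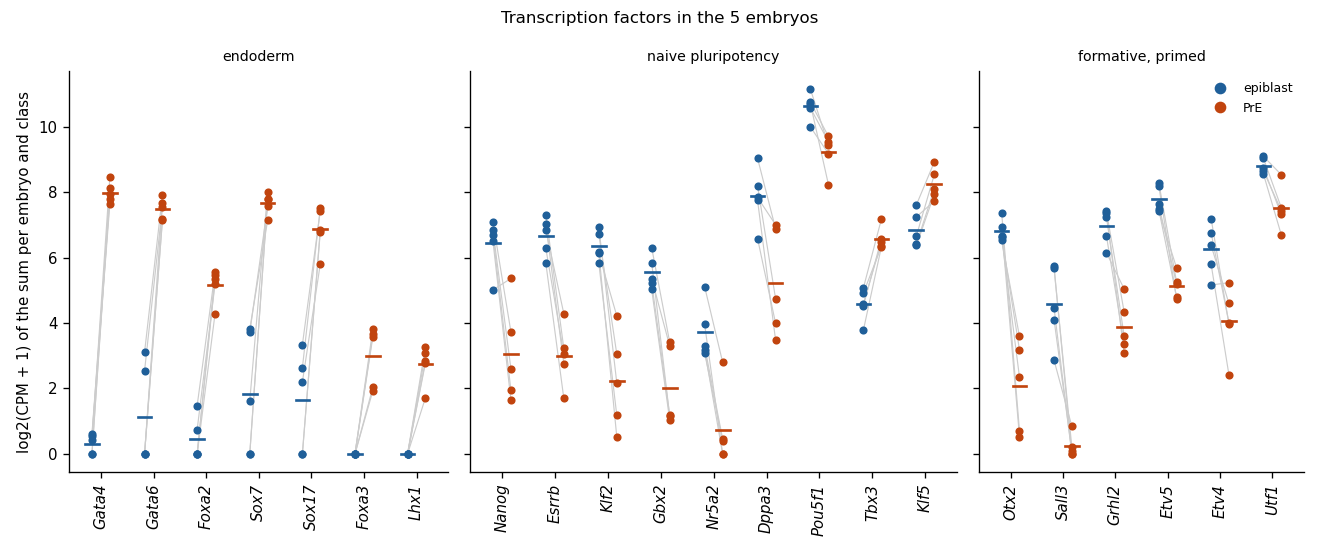
Points are log2(CPM + 1) of the summed counts of each embryo, blue for epiblast and orange for PrE, with gray lines joining the 2 sums of an embryo and bars at the mean of 5. The 7 endoderm factors lie higher in PrE cells, Tbx3 and Klf5 lie with them, and Nanog crosses over in 1 embryo. In that embryo most PrE counts of Nanog came from a cell near the dividing line.

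In the FGF family Fgfr2, Fgfr3 and Fgfr4 were higher in PrE cells and Fgfr1 in epiblast cells. Of 16 ligands, receptors and cofactors listed, 11 were tested, 7 were higher in PrE cells, 1 in epiblast cells and 3 did not pass, with a median log2 fold change of 5.47. Fgfr3 (ENSMUSG00000054252, chromosome 5, 33721674 to 33737068) had 6.93, 0, 0, 0 and 0 CPM in the epiblast and 161, 111, 145, 73.4 and 121 CPM in the PrE (log2 fold change 8.10 ± 1.07, adjusted p = 0.00127). Fgfr2 had 7.70, 1.21, 9.68, 2.85 and 7.86 CPM against 37.4, 48.0, 76.3, 46.4 and 12.495 CPM (log2 fold change 2.97 ± 0.78, adjusted p = 0.0302), and Fgfr4 had 2 counts in the epiblast and 5.88 to 30.6 CPM in the PrE (ratio of summed CPM 85.9, 95% counting interval 23.7 to 711, adjusted p = 0.0131). Fgfr1 went the other way, with 87.8, 52.7, 57.4, 36.4 and 66.5 CPM in the epiblast and 17.2, 5.97, 19.9, 3.77 and 9.89 CPM in the PrE (log2 fold change −2.61 ± 0.49, adjusted p = 0.00679). None of the 4 receptors overlapped between the classes. Leaving out 1 embryo removed the call of Fgfr4 (0.0564 without embryo 1) and Fgfr2 (embryo 1, 2, 3 or 4, up to 0.0969 without embryo 4). Fgfr2 (adjusted p = 0.0571) in wells labelled single alone, and Fgfr2 (0.208) and Fgfr1 (0.0658) with equal numbers of cells did not pass.

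Per kilobase of exon the levels of the receptors can be set side by side, though loosely. The length joined the exons of all annotated transcripts (9875 bases for Fgfr1, 10328 for Fgfr2, 7158 for Fgfr3 and 3542 for Fgfr4). It can exceed that of the transcript present by unequal amounts, so the order and overlap below depend on it. In PrE cells Fgfr3 led with 17.1 CPM per kb (range 10.3 to 22.5), its 5 values all above those of the other receptors, followed by Fgfr2 with 4.27 CPM per kb (range 1.21 to 7.39), Fgfr4 with 3.65 CPM per kb (range 1.66 to 8.63) and Fgfr1 with 1.15 CPM per kb (range 0.382 to 2.01). The ranges of Fgfr2, Fgfr4 and Fgfr1 overlapped their neighbors in that order. In epiblast cells Fgfr1 led with 6.09 CPM per kb (range 3.68 to 8.89), and Fgfr2 was at 0.568 CPM per kb (range 0.117 to 0.937), a range that did not reach that of Fgfr1.

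Cofactors and 2 ligands of the family were higher in PrE cells. Klb (beta-Klotho), the coreceptor for endocrine FGFs, had 0, 0, 0, 1.43 and 3.14 CPM in the epiblast and 103, 71.2, 66.0, 74.8 and 57.7 CPM in the PrE (log2 fold change 6.71 ± 1.004, adjusted p = 0.00230). Flrt3, a membrane protein that binds FGF receptors, had 11.6, 0, 30.1, 37.6 and 15.3 CPM against 537, 956, 639.8, 919 and 600.4 CPM (log2 fold change 5.47 ± 0.64, adjusted p = 6.71e-04), and was above 10 CPM in 79 of 79 PrE cells. Of ligands, Fgf3 had 43.4 to 124 CPM in the PrE against 0 to 8.09 CPM (log2 fold change 6.18 ± 1.08, adjusted p = 0.00523) and Fgf10 34.3 to 101 CPM against 0 to 2.32 CPM (log2 fold change 8.03 ± 1.08, adjusted p = 0.00140). Both ligands did not overlap between classes, and they are classically known from the inner ear and the limb and lung. Fgf4, the ligand used in the rule, ranged over 85.4 to 204 CPM in the epiblast and 1.502 to 17.2 CPM in the PrE. Fgf5, Fgf15 and Frs2, the docking protein of the receptors, did not pass (adjusted p 0.346, 0.0589 and 0.0647).

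Genes known as ERK targets and feedback inhibitors were, where called, higher in the epiblast. Of 22 listed, 20 were tested, 5 were higher in epiblast cells, none in PrE cells and 15 did not pass (median log2 fold change −0.64, and 1 higher in PrE cells without embryo 1). The ETS factor Etv1 had 50.4, 18.2, 38.04, 43.1 and 78.4 CPM in the epiblast and 0.159, 0, 1.93, 0.767 and 3.08 CPM in the PrE (log2 fold change −5.81 ± 0.90, adjusted p = 0.00287). Etv5 had 196, 312, 293, 177 and 171 CPM against 35.4, 37.2, 25.7, 26.9 and 50.4 CPM (log2 fold change −2.70 ± 0.30, adjusted p = 4.96e-04), and Ccnd1 (cyclin D1) had 219, 125, 136, 180.3 and 111 CPM against 3.03, 6.86, 29.7, 4.86 and 20.7 CPM (log2 fold change −4.00 ± 0.65, adjusted p = 0.00352). The phosphatase Dusp6, which removes phosphate from ERK, had 75.1, 57.5, 87.8, 72.6 and 57.7 CPM against 25.005, 9.95, 38.3, 12.9 and 18.0 CPM (log2 fold change −1.89 ± 0.41, adjusted p = 0.0128). These 4 did not overlap. Etv4 overlapped (34.8 to 145 CPM against 4.35 to 36.6 CPM, log2 fold change −2.36 ± 0.60, adjusted p = 0.0252), and its call was lost without embryo 1, 2, 3 or 4 (adjusted p up to 0.0909, without embryo 3). The Sprouty genes Spry1, Spry2 and Spry4, Dusp4 and Egr1 did not pass (adjusted p 0.789, 0.0885, 0.973, 0.905 and 0.872). Etv4 (adjusted p = 0.348) in wells labelled single alone, and Etv4 (0.140) with equal numbers of cells did not pass.

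Of 6 PDGF ligands and receptors listed, 2 were tested, with 1 higher in each class. Pdgfa, the ligand of Pdgfra, had 173, 275, 167, 115 and 139.7 CPM in the epiblast and 101, 80.3, 133, 48.1 and 37.1 CPM in the PrE (log2 fold change −1.21 ± 0.29, adjusted p = 0.0207). It was higher in the epiblast of each embryo, yet the groups overlapped, and it was above 10 CPM in 52 of 79 PrE cells as well as in 26 of 26 epiblast cells. The call of Pdgfa was lost without embryo 2, 4 or 5 (adjusted p up to 0.0697, without embryo 2). Pdgfra had no count in any of the 26 epiblast cells. Pdgfa (adjusted p = 0.222) in wells labelled single alone did not pass.

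Of 21 Nodal pathway genes listed, 17 were tested, 4 were higher in PrE cells (1 without embryo 1, 2 without embryo 3, 2 without embryo 4 and 2 without embryo 5), 2 in epiblast cells and 11 did not pass, with a median log2 fold change of 0.91. Tdgf1 (Cripto), the coreceptor of Nodal, had 1153, 1559, 948, 1547 and 1222 CPM in the epiblast and 50.01, 123, 77.4, 21.5 and 150.0 CPM in the PrE (log2 fold change −4.16 ± 0.42, adjusted p = 3.50e-04). Gdf3, a TGF-beta ligand, had 444, 324, 257, 281 and 326 CPM against 19.4, 21.0, 35.5, 18.1 and 22.7 CPM (log2 fold change −3.83 ± 0.28, adjusted p = 1.06e-04). Lefty1, a secreted Nodal inhibitor, went the other way with 0, 43.6, 0, 9.27 and 0 CPM in the epiblast and 388, 114, 118, 140.0 and 55.8 CPM in the PrE (log2 fold change 5.80 ± 1.35, adjusted p = 0.0186), as did the effector Smad2 (22.3, 10.3, 21.4, 44.8 and 25.2 CPM against 87.4, 86.0, 92.0, 102 and 77.8 CPM, log2 fold change 1.96 ± 0.39, adjusted p = 0.00841). These 4 genes did not overlap. The receptor Acvr1b (0 to 9.88 CPM against 9.08 to 16.5 CPM, log2 fold change 6.44 ± 1.89, adjusted p = 0.0440) and the convertase Furin (0 to 16.4 CPM against 13.5 to 49.1 CPM, log2 fold change 5.65 ± 1.5003, adjusted p = 0.0309) were higher in the PrE of each embryo with some overlap. Nodal itself did not pass (1.16 to 46.0 CPM in the epiblast, 4.25 to 41.7 CPM in the PrE, adjusted p = 0.621), and neither did Lefty2 (0 to 398 CPM against 29.5 to 1152 CPM, adjusted p = 0.492). The adjusted p rose above 0.05 with 1 embryo left out for Lefty1 (0.0609 without embryo 1), Acvr1b (any of the 5, up to 0.124 without embryo 1) and Furin (embryo 1, 3, 4 or 5, up to 0.0792 without embryo 3). Furin (adjusted p = 0.0623) in wells labelled single alone, and Lefty1 (0.235) and Acvr1b (0.0622) with equal numbers of cells did not pass.

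In the BMP pathway, 14 of 24 genes listed were tested and 2 were higher in PrE cells, beside 9.87% of all genes. Id1, a target of BMP receptors that blocks bHLH factors, had 20.0, 0, 44.95, 24.8 and 0 CPM in the epiblast and 214, 208, 244, 611 and 205 CPM in the PrE (log2 fold change 4.86 ± 0.96, adjusted p = 0.00867). Bmp6 was at 3.52 to 16.6 CPM in the PrE and without a count in the epiblast (at least 34.8-fold higher in PrE cells, adjusted p = 0.0341), above 10 CPM in 16 of 79 PrE cells, and its call was lost without any of the 5 embryos (adjusted p up to 0.0836, without embryo 1). Bmp4 had 40.4, 139, 35.6, 136 and 14.8 CPM in the epiblast and 4.62, 4.20, 7.56, 1.63 and 24.7 CPM in the PrE and did not pass (adjusted p = 0.0601), though it did in 8 of 16 alternatives. Without embryo 5, 1 gene of the list was higher in epiblast cells. Id2 and Id3 did not pass (adjusted p 0.152 and 0.732). The BMP antagonist Bmper was among the genes that led the PrE side. Bmp6 (adjusted p = 0.0598) in wells labelled single alone did not pass.

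The Wnt list gave 18 tested genes of 41, of which 2 were higher in PrE cells and 2 in epiblast cells. This was near the shares over all genes (9.87% and 6.81%). Dkk1, a secreted Wnt antagonist, had 0, 0, 0, 0 and 4.27 CPM in the epiblast and 237, 173, 257, 265 and 119 CPM in the PrE (log2 fold change 8.48 ± 1.05, adjusted p = 8.90e-04). Lef1, a nuclear partner of beta-catenin, had 100.1, 104, 74.0, 28.7 and 138 CPM in the epiblast and 5.42, 1.99, 2.46, 0.543 and 4.84 CPM in the PrE (log2 fold change −5.05 ± 0.47, adjusted p = 2.49e-04). Neither overlapped. Tcf7l1, a repressor on the same DNA sites, was at 35.8 to 74.5 CPM in the epiblast and 9.95 to 27.4 CPM in the PrE (log2 fold change −1.72 ± 0.49, adjusted p = 0.0390). Wls, which carries Wnt proteins to the surface, was at 0, 0, 0, 0 and 49.6 CPM in the epiblast and 13.5, 21.7, 10.6, 10.004 and 49.0 CPM in the PrE (log2 fold change 6.04 ± 1.73, adjusted p = 0.0400), near equal in embryo 5 and higher in the PrE of the other 4. With 1 embryo fewer, the test was missed by Tcf7l1 (any of the 5, up to 0.107 without embryo 5) and Wls (embryo 1, 2, 3 or 4, up to 0.121 without embryo 1). Axin2 and Ctnnb1 did not pass (adjusted p 0.413 and 0.986). Tcf7l1 (adjusted p = 0.144) and Wls (0.109) in wells labelled single alone, and Tcf7l1 (0.146) and Wls (0.0730) with equal numbers of cells did not pass.

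Ephrins, which signal between touching cells and sort them, were higher in the PrE where called. Of 18 Eph receptors and ephrins listed, 10 were tested and 3 were higher in PrE cells, none in epiblast cells. The ligand Efna3 had 0, 0, 2.42, 0 and 0.449 CPM in the epiblast and 51.9, 19.9, 42.6, 24.8 and 39.8 CPM in the PrE (log2 fold change 6.88 ± 1.17, adjusted p = 0.00459), the ligand Efna4 had 6.55, 32.1, 23.9, 13.7 and 5.17 CPM against 124, 127, 118, 80.4 and 61.7 CPM (log2 fold change 2.90 ± 0.44, adjusted p = 0.00259), and the receptor Ephb3 had 0, 0, 2.07, 3.21 and 0 CPM against 35.4, 18.1, 60.1, 45.5 and 17.2 CPM (log2 fold change 5.98 ± 1.12, adjusted p = 0.00696). No values overlapped. Of 10 tested members, the median log2 fold change was 1.14.

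**Figure D3:**
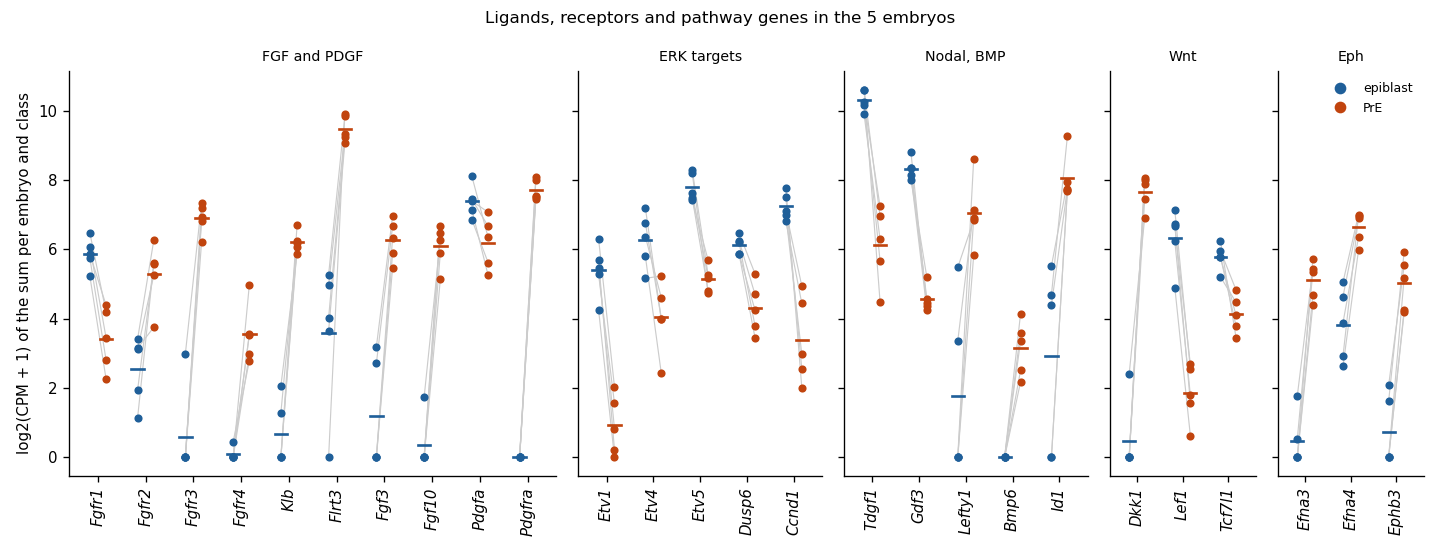
Points are log2(CPM + 1) of the summed counts of each embryo, blue for epiblast and orange for PrE, with gray lines joining the 2 sums of an embryo and bars at the mean of 5. Fgfr1 and the 5 ERK targets lie higher in the epiblast, and Fgfr2, Fgfr3, Fgfr4, Klb, Flrt3 and Pdgfra in the PrE.

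In the Notch list 8 of 20 were tested, with Hes1, a repressor downstream of Notch and other signals, higher in PrE cells (1.16 to 17.3 CPM in the epiblast, 34.4 to 47.5 CPM in the PrE, log2 fold change 3.07 ± 0.77, adjusted p = 0.0245) and Rbpj, the DNA-binding partner of Notch, higher in epiblast cells (144 to 198 CPM against 13.9 to 62.8 CPM, log2 fold change −2.45 ± 0.41, adjusted p = 0.00407). In the Hippo list 17 of 20 were tested, with Tead1 higher in PrE cells (22.1 to 50.8 CPM against 73.2 to 176 CPM, log2 fold change 1.99 ± 0.38, adjusted p = 0.00789) and Tead2 (38.2 to 114 CPM against 4.57 to 39.5 CPM, log2 fold change −2.34 ± 0.53, adjusted p = 0.0156) and the YAP target Ctgf (32.7 to 126 CPM against 9.40 to 26.2 CPM, log2 fold change −1.97 ± 0.38, adjusted p = 0.00734) higher in epiblast cells. Of the other TEAD genes, Tead4 did not pass and Tead3 was not tested. In the LIF list 8 of 16 were tested and Socs2, a feedback inhibitor of cytokine receptors, was higher in epiblast cells (219.9, 219.8, 232, 283 and 139 CPM against 30.3, 20.3, 19.3, 15.0 and 34.0 CPM, log2 fold change −3.23 ± 0.35, adjusted p = 4.72e-04). Lifr, Il6st and Stat3 did not pass (adjusted p 0.775, 0.944 and 0.544). None of 5 tested Hedgehog genes of 16 listed was called. Calls in the lists of this paragraph were few, beside 9.87% of all genes higher in PrE cells and 6.81% in epiblast cells. Calls were lost without 1 embryo for Hes1 (embryo 1, 2, 4 or 5, up to 0.0748 without embryo 5) and Tead2 (0.0512 without embryo 2). Without embryo 4 a Hedgehog gene was called, and without embryo 2 or 4 a second Notch gene, each higher in epiblast cells. Hes1 (adjusted p = 0.0805) and Tead2 (0.503) in wells labelled single alone, and Hes1 (0.126), Tead1 (0.0986) and Ctgf (0.0515) with equal numbers of cells did not pass.

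Type IV collagen stood out among basement membrane genes. Of 26 listed, 15 were tested, 4 were higher in PrE cells, 2 in epiblast cells and 9 did not pass, with a median log2 fold change of 1.18, and the laminin genes Lama1, Lamb1 and Lamc1 were left out as they divided the cells. Col4a1 had 2.31, 0, 8.99, 21.4 and 8.53 CPM in the epiblast and 971, 899.7, 1138, 561 and 936 CPM in the PrE (log2 fold change 7.01 ± 0.68, adjusted p = 2.71e-04). Its partner Col4a2 had 0, 0, 1.04, 5.88 and 0 CPM against 692, 629, 815, 377 and 677 CPM (log2 fold change 8.97 ± 0.86, adjusted p = 2.50e-04). Both chains were far apart between the classes in every embryo. In RefSeq's annotation of GRCm38.p6 the 2 genes start head to head on chromosome 8, Col4a1 at 11312826 on the minus strand and Col4a2 at 11312805 on the plus strand, so that their first 22 transcribed bases overlap.

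Hspg2 (perlecan), a heparan sulfate proteoglycan, had 68.9, 53.9, 48.8, 83.1 and 25.8 CPM in the epiblast and 642, 623, 1128, 407 and 743 CPM in the PrE (log2 fold change 3.68 ± 0.37, adjusted p = 3.26e-04). Sparc, which binds collagen IV, was abundant on both sides and higher in the PrE, with 340.0, 197, 329, 416 and 241 CPM against 3931, 2806, 3279, 2691 and 3065 CPM (log2 fold change 3.41 ± 0.18, adjusted p = 1.09e-05). On the epiblast side stood Fn1 (fibronectin), with 139, 251, 260.4, 337 and 273 CPM in the epiblast and 56.5, 38.3, 60.7, 21.1 and 45.2 CPM in the PrE (log2 fold change −2.53 ± 0.37, adjusted p = 0.00199), and Col18a1, whose end fragment is endostatin, with 69.7, 169.6, 39.4, 22.1 and 104 CPM against 7.80, 8.63, 0.879, 1.25 and 15.7 CPM (log2 fold change −3.89 ± 0.53, adjusted p = 0.00145). None of these 4 overlapped. Of 7 tested integrins of 16 listed, Itga5, which with Itgb1 forms the fibronectin receptor, was higher in PrE cells (72.8, 11.5, 14.2, 42.3 and 30.1 CPM in the epiblast, 182, 99.96, 102, 97.5 and 81.2 CPM in the PrE, log2 fold change 1.95 ± 0.40, adjusted p = 0.0101), and Itgb1 did not pass (adjusted p = 0.226). Nid1, Nid2, Agrn and Lama5 did not pass (adjusted p 0.347, 0.119, 0.480 and 0.0741).

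Enzymes that modify and fold collagen were also higher in PrE cells. Of 20 listed, 15 were tested, 10 were higher in PrE cells, none in epiblast cells and 5 did not pass, and the median log2 fold change was 2.51. Serpinh1 (Hsp47), the chaperone of procollagen, had 72.0, 70.2, 105.1, 41.9 and 245 CPM in the epiblast and 2185, 3942, 2363, 2898 and 2775 CPM in the PrE (log2 fold change 4.96 ± 0.38, adjusted p = 1.06e-04). The catalytic subunits of prolyl 4-hydroxylase followed, P4ha1 with 8.86, 50.3, 13.1, 71.7 and 22.5 CPM against 419, 571, 369, 283 and 227 CPM (log2 fold change 3.79 ± 0.48, adjusted p = 0.00108) and P4ha2 with 0, 0, 0, 1.43 and 0 CPM against 159, 155, 184, 159 and 49.7 CPM (log2 fold change 8.79 ± 0.78, adjusted p = 2.19e-04). Their shared subunit P4hb, a protein disulfide isomerase used by many other proteins, had 498, 512, 521, 369 and 355 CPM against 2395, 2472, 2209, 2274 and 2208 CPM (log2 fold change 2.38 ± 0.14, adjusted p = 1.82e-05). The lysyl hydroxylases Plod2 (0.606 to 18.9 CPM against 204 to 430.4 CPM, log2 fold change 5.32 ± 0.72) and Plod3 (3.08 to 28.5 CPM against 78.3 to 247 CPM, log2 fold change 3.67 ± 0.67) were higher in the PrE as well, and the prolyl 3-hydroxylase Leprel1 had no count in the epiblast and 8.63 to 55.2 CPM in the PrE (at least 198-fold higher in PrE cells, adjusted p = 0.00929). No values of these 7 genes overlapped between classes.

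The machinery of the endoplasmic reticulum (ER) was higher in PrE cells across most of its parts. All 42 genes listed for secretory chaperones and translocation were tested, 33 were higher in PrE cells, none in epiblast cells and 9 did not pass, with a median log2 fold change of 1.67 beside 0.23 over all genes, and 41 of 42 values were above 0. In 16 alternatives 16 to 35 of the genes were higher in PrE cells and the medians ran from 1.58 to 1.88. The genes were expressed in both classes, with smaller differences than for Col4a1 and Col4a2. Hspa5 (BiP), the Hsp70 of the ER, had 622, 419.7, 815, 564 and 151 CPM in the epiblast and 3447, 1859, 2679.9, 2809 and 3118 CPM in the PrE (log2 fold change 2.57 ± 0.33, adjusted p = 0.00113). Hsp90b1 (Grp94) had 788, 868, 941, 872 and 455 CPM against 3117, 1979, 2786, 3484 and 3232 CPM (log2 fold change 1.91 ± 0.21, adjusted p = 5.01e-04), and Dnajc3, an Hsp40 that restrains the kinase PERK, had 48.5, 119, 64.7, 24.4 and 92.5 CPM against 535, 377, 409.9, 499 and 406 CPM (log2 fold change 2.84 ± 0.38, adjusted p = 0.00127). The classes did not overlap in these 3.

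The calcium-binding lectins Calr (98.1 to 391 CPM in the epiblast, 867 to 1319 CPM in the PrE, log2 fold change 1.93 ± 0.26, adjusted p = 0.00145) and Canx (377 to 581 CPM against 927 to 1597 CPM, log2 fold change 1.26 ± 0.17, adjusted p = 0.00141) and the isomerase Pdia6 (152 to 329 CPM against 514 to 1528 CPM, log2 fold change 1.92 ± 0.19, adjusted p = 3.08e-04) were higher too. Creld2, a secreted ER stress protein, had 229, 295, 308, 314 and 40.2 CPM in the epiblast and 1757, 607, 776, 1173 and 798 CPM in the PrE (log2 fold change 2.26 ± 0.43, adjusted p = 0.00746). The retrieval receptor Kdelr3 (0 to 34.1 CPM against 119.6 to 291 CPM, log2 fold change 6.57 ± 1.13, adjusted p = 0.00484), the ubiquitin-domain gene Herpud1 (4.84 to 35.9 CPM against 122 to 538 CPM, log2 fold change 3.80 ± 0.50, adjusted p = 0.00126) and Dnajb11 (11.9 to 70.4 CPM against 122 to 269.8 CPM, log2 fold change 2.94 ± 0.42, adjusted p = 0.00184) moved the same way. Of these 7 genes, none overlapped. Sec24d, of the coat that carries cargo from the ER (0 to 20.8 CPM against 28.2 to 90.6 CPM, log2 fold change 5.02 ± 1.43, adjusted p = 0.0395), and Ddit3 (Chop), a stress factor (0.606 to 8.91 CPM against 21.5 to 71.8 CPM, log2 fold change 2.84 ± 0.70, adjusted p = 0.0229), rested on 119 and 111 counts in the epiblast. The unfolded protein response factors Xbp1 (51.7 to 162 CPM against 387 to 711 CPM, log2 fold change 2.10 ± 0.30, adjusted p = 0.00173) and Atf6 (4.24 to 49.9 CPM against 77.9 to 119.6 CPM, log2 fold change 1.88 ± 0.50, adjusted p = 0.0302) were both higher in PrE cells. Leaving out 1 embryo removed the call of Sec24d (embryo 1, 2, 3 or 4, up to 0.0976 without embryo 2), Ddit3 (embryo 1 or 5, up to 0.0957 without embryo 1) and Atf6 (embryo 2, 3 or 4, up to 0.0727 without embryo 2). Ddit3 (adjusted p = 0.0846) in wells labelled single alone, and Atf6 (0.111) with equal numbers of cells did not pass.

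Atf6 is known to act with NF-Y on the ER stress response element, and its letters, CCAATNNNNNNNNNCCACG, were searched on both strands of RefSeq promoter windows of 300 bases (250 before and 50 after a start, GRCm38.p6). The element was in 39 of 32851 windows (0.119%), and of 6977 tested genes with a window, 15 held it (0.215%). Of the 15, 9 were higher in PrE cells, 1 in epiblast cells (Zfp57) and 5 did not pass. Of all 6977 genes, 722 were higher in PrE cells. Among the 34 ER genes of the list with a window, 7 held it (20.6%), namely Calr, Canx, Creld2, Dnajc3, Hsp90b1, Hspa5 and Pdia6, and the other 2 of the 9 were Derl3 and Syvn1, which both serve ER-associated degradation. No window of 11 collagen modifier, 20 lysosomal or 12 basement membrane genes held these letters. The element is known from ER stress genes, so its share among the ER genes was likely beforehand and is no result of these data. A match is a description of sequence and was not tested for binding, and a part of Atf6 in the levels was not tested. The 250 bases before the start of 4 of these genes are shown, 5′ to 3′ on the strand of the gene, with the element in capitals, to let the element be seen beside the levels above.
Hspa5 (chr2:34771840-34772089, plus strand), with 1 element that begins 65 bases before the start, Hsp90b1 (chr10:86705445-86705694, minus strand), with 2 elements in opposite orientation that begin 212 and 107 bases before it, Dnajc3 (chr14:118937682-118937931, plus strand), with 1, and Creld2 (chr15:88819396-88819645, plus strand), with 1 in reverse orientation that begins 126 bases before it, read as follows.
Hspa5: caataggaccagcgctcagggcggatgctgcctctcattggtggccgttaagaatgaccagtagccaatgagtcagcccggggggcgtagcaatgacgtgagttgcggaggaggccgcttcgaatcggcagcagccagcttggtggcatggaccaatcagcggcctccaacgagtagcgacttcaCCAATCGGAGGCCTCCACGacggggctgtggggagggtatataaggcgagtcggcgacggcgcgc
Hsp90b1: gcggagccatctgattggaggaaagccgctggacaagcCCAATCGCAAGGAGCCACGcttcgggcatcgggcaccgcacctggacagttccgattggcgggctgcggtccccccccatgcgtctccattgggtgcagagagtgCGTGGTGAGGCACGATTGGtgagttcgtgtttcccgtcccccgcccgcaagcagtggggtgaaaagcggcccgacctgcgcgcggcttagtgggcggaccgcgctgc
Dnajc3: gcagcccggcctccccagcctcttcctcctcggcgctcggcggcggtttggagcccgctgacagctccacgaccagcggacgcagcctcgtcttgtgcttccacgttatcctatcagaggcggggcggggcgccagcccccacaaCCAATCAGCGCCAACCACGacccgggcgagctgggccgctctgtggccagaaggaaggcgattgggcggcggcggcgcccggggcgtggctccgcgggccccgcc
Creld2: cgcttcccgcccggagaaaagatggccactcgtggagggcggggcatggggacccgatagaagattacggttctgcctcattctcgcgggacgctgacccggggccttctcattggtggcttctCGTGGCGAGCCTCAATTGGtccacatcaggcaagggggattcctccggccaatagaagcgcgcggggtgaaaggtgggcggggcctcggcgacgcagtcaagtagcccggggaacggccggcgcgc

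The element of Creld2, at chr15:88819520-88819538, lies also in the window of Alg12, which starts on the other strand. Alg12, a mannosyltransferase of the ER, did not pass (log2 fold change 4.08 ± 1.98, adjusted p = 0.192). Derl3 was at 5.01, 0, 0.346, 7.13 and 0 CPM in the epiblast and 157, 20.8, 29.5, 19.4 and 30.5 CPM in the PrE (log2 fold change 5.29 ± 1.16, adjusted p = 0.0137), and Syvn1 at 51.6, 92.1, 104.8, 26.2 and 7.64 CPM against 421, 180.0, 270.1, 198 and 228 CPM (log2 fold change 2.58 ± 0.53, adjusted p = 0.0100). Each was higher in the PrE of all 5 embryos. The adjusted p rose above 0.05 with 1 embryo left out for Derl3 (0.0750 without embryo 1) and Syvn1 (0.05003 without embryo 1).

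Endocytosis genes were led by the partner of the receptor used in the rule. Of 31 endocytic receptors and adaptors listed, 26 were tested, 7 were higher in PrE cells (3 without embryo 1 and 4 without embryo 3), 2 in epiblast cells and 17 did not pass, with a median log2 fold change of 0.75. Lrp2 (megalin), which works with Cubn and Amn, had 66.6, 32.1, 107, 28.9 and 137 CPM in the epiblast and 2477, 1942, 2158, 1500.1 and 3851 CPM in the PrE (log2 fold change 5.18 ± 0.25, adjusted p = 1.06e-05). Cltc, the clathrin heavy chain, had 149.8, 106, 221, 203 and 347 CPM against 685, 422, 565, 611 and 1293 CPM (log2 fold change 1.803 ± 0.17, adjusted p = 2.49e-04), and Rab11a, of the recycling endosome, had 166, 181, 149, 318 and 216 CPM against 762, 636, 645, 883 and 1417 CPM (log2 fold change 2.06 ± 0.19, adjusted p = 2.49e-04). These were separate in every embryo. Igf2r, which binds IGF2 and carries enzymes to lysosomes, overlapped (0.606 to 48.5 CPM against 37.8 to 229 CPM, log2 fold change 3.12 ± 0.76, adjusted p = 0.0220), and its call was lost without embryo 1 or 5 (adjusted p up to 0.0598, without embryo 1). Igf2r (adjusted p = 0.0630) with equal numbers of cells did not pass.

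Tfrc, the transferrin receptor, had 77.8, 25.4, 92.7, 94.0 and 170.0 CPM in the epiblast and 7.17, 13.9, 12.49, 8.18 and 20.7 CPM in the PrE (log2 fold change −2.80 ± 0.49, adjusted p = 0.00523), with no overlap, and the related receptor Tfr2 was not tested. Its ligand Trf (transferrin), a serum protein usually counted with endoderm, had 102, 73.3, 2.07, 82.6 and 39.3 CPM in the epiblast and 0, 0, 6.68, 1.95 and 0 CPM in the PrE (log2 fold change −7.11 ± 2.06, adjusted p = 0.0421), higher in the epiblast of 4 embryos and lower in embryo 3. The adaptor Epn2 was at 44.7 to 74.7 CPM in the epiblast and 11.6 to 26.3 CPM in the PrE (log2 fold change −1.49 ± 0.45, adjusted p = 0.0475). With 1 embryo fewer, the test was missed by Trf (embryo 1, 2, 4 or 5, up to 0.145 without embryo 1) and Epn2 (any of the 5, up to 0.156 without embryo 4). Tfrc (adjusted p = 0.0737) and Epn2 (0.139) in wells labelled single alone, and Epn2 (0.0734) with equal numbers of cells did not pass.

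Lysosomal genes that were called were higher in PrE cells. Of 30 listed, 27 were tested, 17 were higher in PrE cells, none in epiblast cells and 10 did not pass, with a median log2 fold change of 1.75. Ctsl (cathepsin L) had 193, 208, 137, 229 and 322 CPM in the epiblast and 2505, 1376, 1335, 2060.4 and 3881 CPM in the PrE (log2 fold change 3.30 ± 0.17, adjusted p = 1.06e-05), Ctsz had 48.9, 52.1, 79.5, 14.4 and 108 CPM against 1532, 1098, 828, 760.4 and 1330.0 CPM (log2 fold change 4.40 ± 0.35, adjusted p = 1.12e-04), and Ctsh had 0, 0, 2.77, 1.43 and 0 CPM against 133, 39.1, 31.1, 63.4 and 251 CPM (log2 fold change 6.82 ± 1.16, adjusted p = 0.00442). The proteases Ctsc (3.46 to 78.1 CPM against 185 to 702 CPM, log2 fold change 3.64 ± 0.54) and Lgmn (12.3 to 80.2 CPM against 273 to 599.6 CPM, 3.63 ± 0.43) and the sialidase Neu1 (7.64 to 21.8 CPM against 77.0 to 246 CPM, 3.34 ± 0.47) were higher as well. All 6 were without overlap, and the 5 PrE sums of the whole list ranged over 6911 to 13178 CPM against 1909.8 to 2461 CPM. Ctsd, Psap and Npc2 did not pass (adjusted p 0.0856, 0.996 and 0.0708).

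Lipid and serum carriers moved in both directions. Of 31 listed, 11 were tested, 6 were higher in PrE cells, 2 in epiblast cells (Trf and Apoa2) and 3 did not pass. Ttr (transthyretin), which carries thyroxine and retinol-binding protein, had 0, 0, 0, 2.85 and 0 CPM in the epiblast and 82.7, 36.0, 102, 67.4 and 63.6 CPM in the PrE (log2 fold change 7.90 ± 1.13, adjusted p = 0.00182). Soat2, which esterifies cholesterol, had 37.2 to 168 CPM in the PrE against 0 to 2.31 CPM (log2 fold change 7.23 ± 1.005, adjusted p = 0.00162), and Mttp, which loads lipid on apolipoprotein B, 5.98 to 61.5 CPM against 0 to 0.535 CPM (ratio of summed CPM 139, 95% counting interval 47.4 to 674, adjusted p = 0.0110). The apolipoprotein Apoa2 went the other way, with 23.1, 22.4, 19.7, 47.4 and 39.5 CPM in the epiblast and 7.33, 0, 2.46, 1.89 and 3.51 CPM in the PrE (log2 fold change −3.83 ± 1.05, adjusted p = 0.0340). None of these 4 overlapped. Apoe was high in both classes and did not pass (1419.9 to 3306 CPM against 1093 to 3465 CPM, adjusted p = 0.361). The call of Apoa2 was lost without embryo 3, 4 or 5 (adjusted p up to 0.115, without embryo 4). Apoa2 (adjusted p = 0.0976) in wells labelled single alone, and Apoa2 (0.0889) with equal numbers of cells did not pass.

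Retinoid genes were called in both directions. Of 22 listed, 12 were tested, 5 were higher in PrE cells (3 without embryo 1), 3 in epiblast cells and 4 did not pass, with a median log2 fold change of 1.13. Rdh10, which oxidizes retinol, had 4.24, 0, 15.9, 1.96 and 1.35 CPM in the epiblast and 95.7, 88.5, 38.9, 114 and 199 CPM in the PrE (log2 fold change 5.24 ± 0.997, adjusted p = 0.00735). Cyp26a1, which degrades retinoic acid, had 0, 0, 0, 1.07 and 0 CPM against 82.8, 30.5, 10.2, 32.0 and 38.8 CPM (log2 fold change 7.78 ± 1.22, adjusted p = 0.00302). Aldh1a1, a retinal dehydrogenase, and Stra6, the retinol uptake receptor, had no count in the epiblast and 6.38 to 23.3 CPM (at least 68.8-fold higher in PrE cells, adjusted p = 0.0246) and 3.32 to 66.7 CPM (at least 65.3-fold higher in PrE cells, adjusted p = 0.0190) in the PrE. No values of these 4 overlapped. On the epiblast side were the retinoic acid receptor Rarg (80.9, 55.1, 61.2, 43.7 and 78.2 CPM against 5.26, 0, 3.52, 0.0320 and 3.56 CPM, log2 fold change −5.62 ± 1.10, adjusted p = 0.00841) and the retinoic acid carrier Crabp2 (61.2, 45.4, 10.4, 3.57 and 25.8 CPM against 0.637, 0.885, 3.52, 0.160 and 2.87 CPM, log2 fold change −4.23 ± 1.03, adjusted p = 0.0213), again without overlap. Calls were lost without 1 embryo for Stra6 (0.0749 without embryo 1), Aldh1a1 (0.0638 without embryo 1) and Crabp2 (embryo 1, 2 or 4, up to 0.0864 without embryo 1). Crabp2 (adjusted p = 0.127) in wells labelled single alone did not pass.

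**Figure D4:**
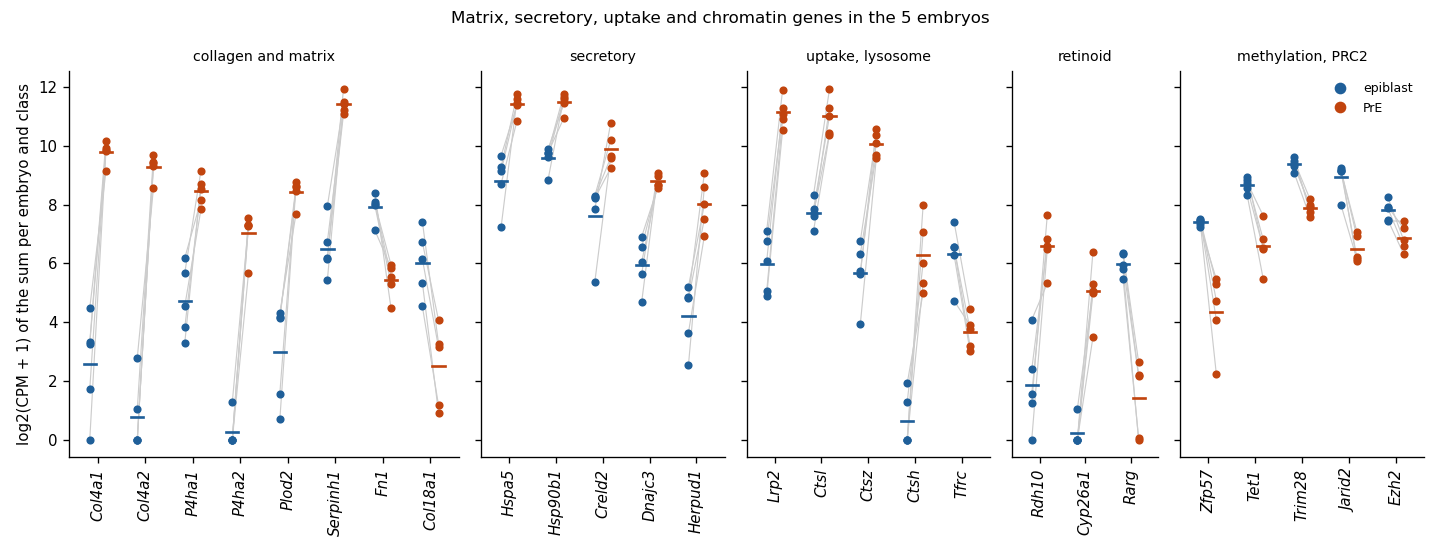
Points are log2(CPM + 1) of the summed counts of each embryo, blue for epiblast and orange for PrE, with gray lines joining the 2 sums of an embryo and bars at the mean of 5. Collagen IV, its enzymes, ER chaperones and cathepsins lie higher in the PrE, and Fn1, Col18a1, Tfrc, Rarg and the 5 chromatin genes in the epiblast.

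Chromatin regulators of the next 2 lists were, where called, higher in the epiblast. Of 18 genes of DNA methylation and imprint protection listed (without Dnmt3b and Dnmt3l), 15 were tested, 5 were higher in epiblast cells, none in PrE cells and 10 did not pass (median log2 fold change −0.33). Zfp57, which guards methylated imprints, had 151, 175, 174, 161 and 183 CPM in the epiblast and 43.0, 15.9, 38.3, 3.68 and 25.6 CPM in the PrE (log2 fold change −3.08 ± 0.52, adjusted p = 0.00438). Its corepressor Trim28 (Kap1) had 719, 642, 673, 794 and 544 CPM against 290.2, 252, 240.1, 213 and 189.5 CPM (log2 fold change −1.51 ± 0.15, adjusted p = 3.50e-04), and the dioxygenase Tet1 had 377, 317, 457, 493 and 429 CPM against 91.3, 43.6, 111, 89.6 and 196 CPM (log2 fold change −2.11 ± 0.25, adjusted p = 7.64e-04). None of the 3 overlapped. Setdb1, the methyltransferase that Trim28 recruits (78.5 to 194 CPM against 44.1 to 72.0 CPM, log2 fold change −1.11 ± 0.28, adjusted p = 0.0249), and Uhrf1, which guides Dnmt1 (191 to 453 CPM against 107 to 226 CPM, log2 fold change −1.04 ± 0.23, adjusted p = 0.0155), were less apart. Dnmt1, Dnmt3a and Tet2 did not pass (adjusted p 0.386, 0.928 and 0.685). Leaving out 1 embryo removed the call of Setdb1 (embryo 1, 2 or 3, up to 0.0801 without embryo 3) and Uhrf1 (0.0550 without embryo 4). Setdb1 (adjusted p = 0.420) and Uhrf1 (0.245) in wells labelled single alone did not pass.

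Of 11 genes of Polycomb repressive complex 2, which methylates histone H3 lysine 27, 9 were tested, 4 were higher in epiblast cells (2 without embryo 1, 1 without embryo 3 and 2 without embryo 4) and none in PrE cells. The targeting subunit Jarid2 had 255, 569, 571, 612 and 579.6 CPM in the epiblast and 69.8, 73.2, 135, 67.2 and 119.8 CPM in the PrE (log2 fold change −2.47 ± 0.24, adjusted p = 2.49e-04), without overlap. The core subunits Ezh2 (174 to 305 CPM against 78.7 to 172 CPM, log2 fold change −0.95 ± 0.25, adjusted p = 0.0307), Suz12 (136 to 225 CPM against 51.0 to 141 CPM, log2 fold change −1.13 ± 0.25, adjusted p = 0.0154) and Eed (181 to 447 CPM against 101 to 247 CPM, log2 fold change −0.87 ± 0.19, adjusted p = 0.0153) were higher in the epiblast of each embryo, with overlap for Suz12 and Eed. Without 1 embryo the core subunits lost their calls, Ezh2 (embryo 1, 3, 4 or 5, up to 0.107 without embryo 4), Suz12 (embryo 1 or 3, up to 0.0570 without embryo 1) and Eed (embryo 3 or 4, up to 0.0625 without embryo 4). Ezh2 (adjusted p = 0.196) and Suz12 (0.0873) in wells labelled single alone, and Ezh2 (0.0717), Suz12 (0.0686) and Eed (0.0552) with equal numbers of cells did not pass.

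Imprinted genes, expressed from 1 parental copy, gave 4 of 18 tested (of 30 listed) higher in epiblast cells and 2 higher in PrE cells. Mest had 53.1, 50.9, 55.0, 28.2 and 104 CPM in the epiblast and 4.14, 3.10, 8.62, 6.42 and 0.957 CPM in the PrE (log2 fold change −3.73 ± 0.77, adjusted p = 0.0104), and Snrpn 369, 423, 225, 323 and 222 CPM against 65.1, 42.0, 47.0, 68.7 and 33.6 CPM (log2 fold change −2.61 ± 0.23, adjusted p = 2.24e-04), both without overlap, as was Phlda2 above. The transporter Slc38a4 was at 39.8 to 139 CPM in the epiblast and 13.9 to 52.0 CPM in the PrE (log2 fold change −1.30 ± 0.35, adjusted p = 0.0310). Igf2r and Gnas, the G protein alpha subunit (53.1 to 79.7 CPM against 95.8 to 159 CPM, log2 fold change 1.02 ± 0.27, adjusted p = 0.0312), were higher in PrE cells. Igf2, a growth factor, did not pass (adjusted p = 0.161). The adjusted p rose above 0.05 with 1 embryo left out for Slc38a4 (embryo 1, 3, 4 or 5, up to 0.117 without embryo 4) and Gnas (embryo 1, 3, 4 or 5, up to 0.101 without embryo 1). Mest (adjusted p = 0.0613), Slc38a4 (0.167) and Gnas (0.0625) in wells labelled single alone, and Mest (0.107), Slc38a4 (0.177) and Gnas (0.0791) with equal numbers of cells did not pass.

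Of 24 glycolysis and transport genes listed, 20 were tested, 3 were higher in PrE cells and 4 in epiblast cells (2 without embryo 1 and 2 without embryo 3). The liver-type phosphofructokinase Pfkl had 158, 239, 99.9, 80.6 and 113 CPM in the epiblast and 867, 625, 534, 401 and 345 CPM in the PrE (log2 fold change 2.04 ± 0.21, adjusted p = 3.93e-04), and the platelet-type Pfkp had 198, 244, 247, 215 and 466 CPM against 28.2, 17.7, 28.3, 26.8 and 58.6 CPM (log2 fold change −3.14 ± 0.24, adjusted p = 1.06e-04). Per kilobase of exon the ranges of the 2 overlapped in the epiblast, with 20.7 CPM per kb (range 12.1 to 35.7) for Pfkl and 20.4 CPM per kb (range 14.8 to 34.8) for Pfkp, while in the PrE Pfkl had 83.1 CPM per kb (range 51.7 to 129.9) and Pfkp 2.38 CPM per kb (range 1.32 to 4.38). The length joined the exons of all annotated transcripts (6675 bases for Pfkl, 13401 for Pfkp) and can exceed that of the transcript present. The near equality in the epiblast depends on that length, and in CPM Pfkp was above Pfkl in the epiblast of each embryo. The muscle-type Pfkm did not pass (adjusted p = 0.171), with 4.29 CPM per kb (range 0.544 to 11.6) in the epiblast and 9.15 CPM per kb (range 6.52 to 11.3) in the PrE. The glucose transporter Slc2a3 was higher in PrE cells (50.1, 60.0, 53.9, 82.0 and 48.1 CPM against 1088, 279.8, 382, 313 and 469 CPM, log2 fold change 2.93 ± 0.35, adjusted p = 7.42e-04). The lactate exporter Slc16a3 (262, 263, 251, 115 and 179 CPM against 14.7, 109, 47.3, 52.1 and 40.2 CPM, log2 fold change −2.18 ± 0.43, adjusted p = 0.00832) and Pdk1, a kinase that turns off pyruvate dehydrogenase (52.8, 96.3, 68.8, 42.6 and 63.8 CPM against 3.82, 12.2, 25.7, 15.3 and 30.8 CPM, log2 fold change −2.10 ± 0.54, adjusted p = 0.0267), were higher in epiblast cells. None of these 5 overlapped. Tpi1 was slightly higher in PrE cells (79.2 to 675 CPM against 271 to 907 CPM, log2 fold change 0.96 ± 0.23, adjusted p = 0.0205). With 1 embryo fewer, the test was missed by Pdk1 (embryo 1, 2 or 3, up to 0.0846 without embryo 2) and Tpi1 (embryo 1 or 4, up to 0.0775 without embryo 1). Slc16a3 (adjusted p = 0.0744), Pdk1 (0.0785) and Tpi1 (0.0849) in wells labelled single alone did not pass.

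In threonine, glycine and serine metabolism, 21 of 22 genes were tested, 3 were higher in PrE cells and 2 in epiblast cells. Tdh, the threonine dehydrogenase on which mouse pluripotent cells depend, had 627, 442, 482, 627 and 497 CPM in the epiblast and 145, 48.9, 88.1, 51.3 and 159 CPM in the PrE (log2 fold change −2.59 ± 0.29, adjusted p = 5.50e-04), without overlap. Phgdh, the first enzyme of serine synthesis, had 104, 96.3, 19.4, 36.2 and 218 CPM against 466, 318, 147, 325 and 278 CPM (log2 fold change 2.08 ± 0.39, adjusted p = 0.00696), higher in the PrE of each embryo though embryo 5 had 218 CPM in its epiblast. Gcsh of the glycine cleavage system was higher in PrE cells (376 to 569 CPM against 780.2 to 986 CPM, log2 fold change 0.95 ± 0.16, adjusted p = 0.00417).

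Of 37 keratins, junction and polarity genes listed, 30 were tested, 4 were higher in PrE cells (2 without embryo 1, 2 without embryo 2, 2 without embryo 3 and 2 without embryo 5), 6 in epiblast cells (3 without embryo 3 and 3 without embryo 4) and 20 did not pass. Among claudins, the seals of tight junctions, Cldn6 was higher in PrE cells (109, 104.8, 21.8, 97.3 and 120.4 CPM in the epiblast, 708, 271, 237, 146 and 570.3 CPM in the PrE, log2 fold change 2.06 ± 0.38, adjusted p = 0.00667) and Cldn4 in epiblast cells (136, 80.5, 261, 25.1 and 113 CPM against 0, 8.40, 3.52, 0 and 6.54 CPM, log2 fold change −6.03 ± 1.13, adjusted p = 0.00696). Cdh3 (P-cadherin) was higher in epiblast cells (32.3, 40.6, 32.2, 25.3 and 15.7 CPM against 0, 0.885, 0, 2.08 and 4.41 CPM, log2 fold change −5.36 ± 1.46, adjusted p = 0.0336), as was Jup (plakoglobin, 129.6 to 229 CPM against 16.1 to 122 CPM, log2 fold change −2.04 ± 0.39, adjusted p = 0.00722), and Cdh1 (E-cadherin) did not pass (adjusted p = 0.328). Krt8, an epithelial keratin, had no count in the epiblast and 5.10 to 60.0 CPM in the PrE (at least 94.3-fold higher in PrE cells, adjusted p = 0.0156). The polarity gene Pard3 was higher in PrE cells (0.385 to 24.6 CPM against 29.3 to 107 CPM, log2 fold change 2.33 ± 0.66, adjusted p = 0.0394). No values overlapped in these 6 genes. Leaving out 1 embryo removed the call of Cdh3 (embryo 1, 2, 3 or 4, up to 0.0940 without embryo 2) and Pard3 (any of the 5, up to 0.111 without embryo 5). Cdh3 (adjusted p = 0.116) and Pard3 (0.0791) in wells labelled single alone, and Cdh3 (0.0576) and Pard3 (0.0892) with equal numbers of cells did not pass.

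Secreted proteases and inhibitors were mostly called on the PrE side. Of 28 listed, 17 were tested, 5 were higher in PrE cells (3 without embryo 1) and 1 in epiblast cells. The trypsin inhibitor Spink3 had 0.770, 0, 14.9, 0.891 and 29.9 CPM in the epiblast and 150.0, 406, 489, 321 and 1018 CPM in the PrE (log2 fold change 6.49 ± 0.66, adjusted p = 3.52e-04), the serine protease Htra1 had 58.1, 45.4, 19.4, 35.8 and 3.37 CPM against 455, 265, 387, 345 and 339 CPM (log2 fold change 3.80 ± 0.53, adjusted p = 0.00170), and Serpine2, an inhibitor of plasminogen activators, had 11.6, 0, 0, 0.535 and 1.797 CPM against 134, 95.3, 85.1, 81.3 and 33.1 CPM (log2 fold change 5.93 ± 0.98, adjusted p = 0.00398). Its target Plat (tissue plasminogen activator) had no count in the epiblast and 5.75 to 36.9 CPM in the PrE (at least 69.2-fold higher in PrE cells, adjusted p = 0.0223). These 4 were without overlap. Adam10 was slightly higher in PrE cells (25.4 to 132 CPM against 38.1 to 239 CPM, log2 fold change 0.84 ± 0.23, adjusted p = 0.0337) and Serpinb9b higher in epiblast cells (11.9 to 89.6 CPM against 0.0320 to 8.08 CPM, log2 fold change −4.37 ± 1.30, adjusted p = 0.0463). The adjusted p rose above 0.05 with 1 embryo left out for Plat (0.0650 without embryo 1), Adam10 (any of the 5, up to 0.118 without embryo 4) and Serpinb9b (embryo 1, 2, 3 or 4, up to 0.156 without embryo 3). Adam10 (adjusted p = 0.166) and Serpinb9b (0.0822) in wells labelled single alone did not pass.

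Beside 9.87% of all genes higher in PrE cells and 6.81% higher in epiblast cells, the cell cycle lists held calls of both kinds. Of 24 mitosis genes all were tested, and 2 were higher in PrE cells and 1 in epiblast cells, with a median log2 fold change of 0.09, and these were Mki67 (42.4 to 146 CPM against 119 to 305 CPM, log2 fold change 0.95 ± 0.25, adjusted p = 0.0302), Kif23 (42.5 to 130.2 CPM against 104 to 169 CPM, log2 fold change 0.996 ± 0.29, adjusted p = 0.0422) and Cenpf (196 to 424 CPM against 148 to 282 CPM, log2 fold change −0.68 ± 0.17, adjusted p = 0.0224). Of 22 DNA replication genes, 3 were higher in epiblast cells, Mcm3 (log2 fold change −1.03 ± 0.22, adjusted p = 0.0130), Gmnn (log2 fold change −0.90 ± 0.19, adjusted p = 0.0130) and Pcna (log2 fold change −0.89 ± 0.18, adjusted p = 0.0107). Of 16 tested G1 genes of 19 listed, 4 were higher in epiblast cells. Besides Ccnd1 these were its kinase Cdk6 (47.4, 2.42, 38.4, 80.2 and 67.4 CPM in the epiblast, 1.27, 0, 0, 1.05 and 3.72 CPM in the PrE, log2 fold change −5.86 ± 0.95, adjusted p = 0.00352), Ccnd3 (log2 fold change −1.08 ± 0.24, adjusted p = 0.0145) and Cdk4 (log2 fold change −0.54 ± 0.12, adjusted p = 0.0169). Cdk6 was higher in the epiblast of each embryo, with overlap through embryo 2. With 1 embryo fewer, the test was missed by Mki67 (embryo 2, 3, 4 or 5, up to 0.0973 without embryo 4), Kif23 (embryo 1, 3, 4 or 5, up to 0.131 without embryo 1), Cenpf (embryo 1, 2, 3 or 5, up to 0.0707 without embryo 1), Mcm3 (0.0559 without embryo 1) and Cdk4 (embryo 4 or 5, up to 0.0534 without embryo 4). Kif23 (adjusted p = 0.115), Cenpf (0.0962), Mcm3 (0.0791) and Ccnd3 (0.0884) in wells labelled single alone, and Kif23 (0.123), Cenpf (0.130), Gmnn (0.156), Pcna (0.0698), Ccnd3 (0.0504) and Cdk4 (0.0997) with equal numbers of cells did not pass.

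**Figure D5:**
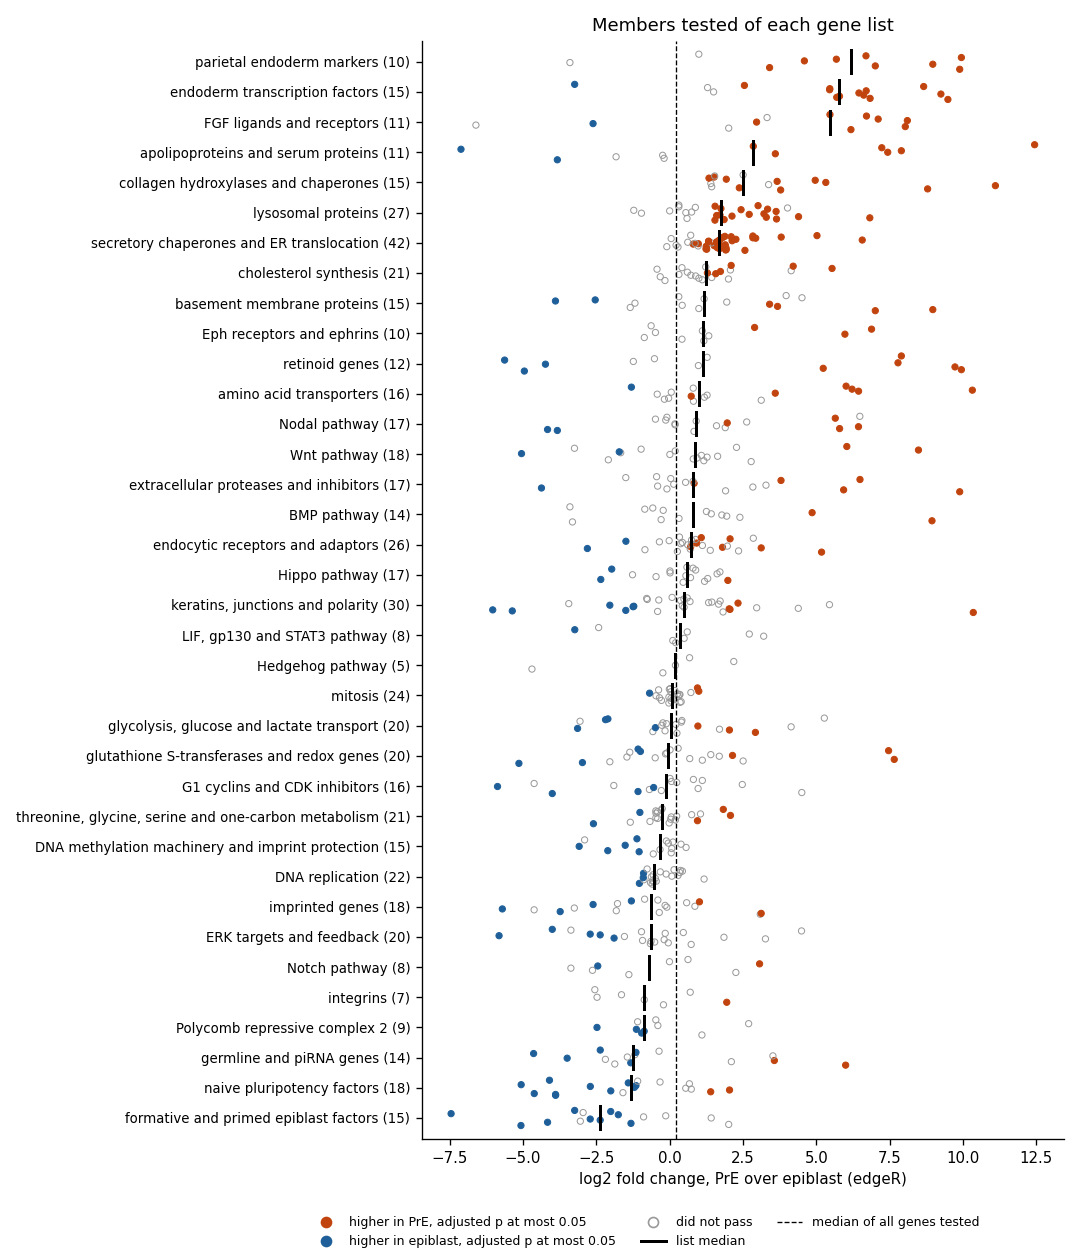
Each point is 1 tested gene of a list, placed by its log2 fold change (PrE over epiblast, x axis), filled orange or blue where it was called higher in PrE or epiblast cells and open where it did not pass, with black bars at the list medians and a dashed line at the median of all genes tested. Lists with at least 5 tested genes are drawn, their number in parentheses, and the parietal endoderm, endoderm factor and FGF lists have the highest medians.

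Markers of other cell types were read in the same sums. The study had removed cells with counts in all of Elf5, Wnt7b and Tex19.1 as trophoblast. Low levels of trophectoderm markers were thus likely beforehand and do not test for such cells. Of 16 trophectoderm markers listed, 4 were tested, and Cdx2, Krt7, Hand1, Tfap2c and Dppa1 had no count in any sum. Elf5, Gata2 and Gata3 had means of 1.45 CPM, 1.24 CPM and 2.58 CPM in the epiblast and 0.0192 CPM, 0.0953 CPM and 0.219 CPM in the PrE. The list summed to 97.0 to 297 CPM in the epiblast and to 403 to 1849 CPM in the PrE, in the PrE most of it from Fabp3, a fatty acid carrier that was higher in PrE cells (98.96, 189.6, 168, 40.8 and 151 CPM against 929.6, 324, 896, 685 and 1787 CPM, log2 fold change 2.85 ± 0.43, adjusted p = 0.00245), while Lgals3 was higher in epiblast cells (10.52 to 76.3 CPM against 1.34 to 30.7 CPM, log2 fold change −1.98 ± 0.53, adjusted p = 0.0323) and lost its call without any of the 5 embryos (adjusted p up to 0.0910, without embryo 5). Of 17 blood, endothelial and maternal tissue markers, 1 was tested and did not pass, 7 were at 0 and the list summed to 4.24 to 39.8 CPM in the epiblast and 1.81 to 14.1 CPM in the PrE. The part of other cell types in the differences was not tested. Lgals3 (adjusted p = 0.0625) in wells labelled single alone, and Lgals3 (0.178) with equal numbers of cells did not pass.

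Of 11 parietal endoderm markers, 10 were tested and 8 were higher in PrE cells (5 without embryo 1), with a median log2 fold change of 6.19 (5.86 with genes at 0 in the epiblast set to their lower limit). Srgn, a proteoglycan of secretory granules, had 1.16, 0, 13.1, 32.8 and 121 CPM in the epiblast and 1007, 1043, 864, 2284 and 3855 CPM in the PrE (log2 fold change 6.69 ± 0.70, adjusted p = 4.04e-04). Pth1r, the receptor for parathyroid hormone-related protein, had 0, 0, 46.3, 1.78 and 8.98 CPM against 175, 149.7, 239.9, 219 and 211 CPM (log2 fold change 5.68 ± 0.97, adjusted p = 0.00464). Both were without overlap, although epiblast cells of embryo 5 held 121 CPM of Srgn. Visceral and parietal endoderm share many of these genes, so the list gives no split of the PrE cells.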

How the data were processed

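Counts of reads per gene and cell were deposited by the authors, who trimmed reads with Trim Galore (0.4.3 in the submitters' processing notes), mapped them to GRCm38 with HISAT2 (2.0.5 in those notes, while the study's methods name other versions of both) and counted them over genes in SeqMonk (version not given in the sources used here). The table holds 721 cells and 24483 gene rows on chromosomes 1 to 19, and each column was matched to its sample by name. The strand setting of the counting is not given in the sources used here, so overlapping and antisense genes are uncertain, and genes with close copies (Nlrp4f, Serpinb9b, Tex19.1 and the glutathione S-transferases) are uncertain too.

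Raw counts of the E4.5 cells were summed per embryo and class and fitted in R 4.3.3 by edgeR 4.0.16 (filterByExpr, TMM, embryo and class as terms, quasi-likelihood test), with adjustment over all genes tested. The method was also run on simulated counts, in which the changed genes had moderate folds and enough counts in every sum. Genes near 0 in a class, such as Pdgfra, were not among the changed genes. The simulation therefore does not speak for them, and its outcome is not given here. The 11 genes that divided the cells stayed in library sizes and out of the tests. Both sums of an embryo come from the same animal, which gives the pairing. Their deviations from the class means correlated at 0.0244 to 0.103, in each embryo above the correlation with any other embryo. Means taken over the same embryos make that order likelier, and the correlations are low, so they are no support for the pairing. Summed counts ranged from 4589551 to 31919578 in PrE and from 1666375 to 5981234 in epiblast sums, so low genes are measured less precisely in the epiblast. A fold against a class without counts is a lower limit against 3 counts over the class.

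Cells and gene lists were chosen with earlier results of these data known. Genes were named by rank of fold change (10 each way, with a mean of at least 50 CPM and one direction in all embryos) up to 6 called genes per list, and tested ligands and receptors of the signaling lists. Others were named after their values were seen, among them Tbx3, Klf5, Crabp2, P4hb, Hspa5, Hsp90b1, Calr, Canx, Creld2, Pdia6, Xbp1, Atf6, Derl3, Syvn1 and the genes given as not passed or not tested. Alternatives were RLE scaling, DESeq2 1.42.0, limma 3.58.1, no filter, no embryo term, each embryo left out, single wells, equal cell numbers, each plate, and cells at least 1 or (chosen after seeing the data) 2 from the dividing line. Promoter windows and coordinates come from RefSeq (GRCm38.p6) and from the gene annotation of GRCm38. Some genes of these lists are counted but not reported here by name.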

Additional observations from a re-analysis of the deposited data

Results flagged for a closer look

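Of 204 named genes, 13 (6.37%) had 1 embryo whose difference between the classes stood apart from the other 4 (Dixon's ratio above 0.71), where chance flags about 1 in 20. All values are differences of log2(CPM + 1), PrE minus epiblast. In embryo 5 the difference was 0.351 for Nanog (others −4.87 to −3.36), 0.671 for Acvr1b (3.33 to 4.13), 4.51 for Dkk1 (7.45 to 8.06), −0.0190 for Wls (3.46 to 4.503), 7.40 for Soat2 (4.76 to 5.49) and 4.36 for Hspa5 (1.72 to 2.47). In embryo 4 it was 5.78 for Col4a2 (8.65 to 9.44) and 1.33 for Derl3 (4.45 to 4.98). Embryo 3 gave 6.595 for Bmper (5.38 to 5.595) and 1.32 for Trf (−6.69 to −4.82). Embryo 2 gave 9.90 for Flrt3 (4.37 to 5.42) and −0.824 for Tfrc (−3.37 to −2.80), and embryo 1 gave 4.69 for Slc7a8 (2.32 to 2.63). Embryo 5 thus held 6 of the 13. The sign of the difference turned in that embryo for Nanog and Wls and in embryo 3 for Trf. For Nanog most PrE counts of embryo 5 came from a cell near the dividing line.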

How the results depend on the processing

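The 1675 genes at an adjusted p of at most 0.05 became 3084 by DESeq2, 2965 by limma on means over cells, 1090 with equal numbers of cells, 910 in single wells, 317 on plate P1 alone, 526 on plate P2 alone and 971 to 1316 with 1 embryo left out. The 980 genes beyond the fold limit became 1798 by DESeq2, 747 with equal numbers of cells, 603 in single wells, 284 on plate P1, 352 on plate P2 and 601 to 794 with 1 embryo left out. Fewer cells or embryos enter most of these fits. Foxa3, Krt8, Cyp26a1, Aldh1a1, Slc7a8 and Gstm5 were tested neither in single wells nor with equal numbers of cells. Nr5a2, Sall3, Fgfr4, Acvr1b and Trf were not tested in single wells. Aoah, Lhx1, Bmp6, Mttp, Stra6, Plat, Crabp2, Cdk6 and Ddx4 were not tested with equal numbers of cells. Without the replicate block, that is with the sums not paired by embryo, the counts were 1554 and 887, and 25 of 204 named genes no longer passed. Cells at least 2 from the dividing line, an alternative chosen after seeing the data, gave 1716 and 1058. No gene was called in opposite directions in any of the 16 alternatives. The median of all genes, 0.23, was 0.05 with equal numbers of cells and 0.61 without the filter. Direction turned for 2 named genes, neither of which passed: Fgf5 had −0.37 on plate P1 alone, and Nodal had −0.24 in single wells and −0.59 with equal numbers of cells. The cause was not tested. Leaving out 1 embryo removed the call of 31 to 54 of 204 named genes, most without embryo 1. With 4 to 7 epiblast cells in an embryo, a gene at 0 there may be expressed below what these counts show.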

Other observations

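Cholesterol synthesis and amino acid transport also had more genes higher in PrE cells. Of 21 cholesterol genes, all tested, 6 were higher in PrE cells (3 without embryo 1, 2 without embryo 4 and 2 without embryo 5), none in epiblast cells and 15 did not pass, with a median log2 fold change of 1.23. Stard4, which moves cholesterol between membranes, was at 0 to 46.5 CPM in the epiblast and 127 to 238 CPM in the PrE (log2 fold change 4.21 ± 1.03, adjusted p = 0.0222), and Lss, which closes the sterol rings, at 20.0 to 135 CPM against 153 to 216 CPM (log2 fold change 1.57 ± 0.46, adjusted p = 0.0452). Of 16 tested amino acid transporters of 22 listed, 6 were higher in PrE cells (2 without embryo 1, 3 without embryo 2, 2 without embryo 3, 2 without embryo 4 and 2 without embryo 5) and 1 in epiblast cells (Slc38a4). Slc7a8, a carrier of neutral amino acids, was at 0 to 0.898 CPM in the epiblast and 3.98 to 24.8 CPM in the PrE (log2 fold change 6.44 ± 1.56, adjusted p = 0.0212). Calls were lost without 1 embryo for Stard4 (0.0600 without embryo 1), Lss (embryo 1, 4 or 5, up to 0.125 without embryo 4) and Slc7a8 (any of the 5, up to 0.0792 without embryo 1).

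Of 28 germline and piRNA genes listed, 14 were tested, 5 were higher in epiblast cells and 2 in PrE cells (1 without embryo 1, 1 without embryo 4 and 0 without embryo 5). Morc1, a repressor of transposons, was at 324 to 656 CPM in the epiblast and 7.42 to 47.1 CPM in the PrE (log2 fold change −4.63 ± 0.51, adjusted p = 4.72e-04). Ddx4 (Vasa), a germ cell helicase, was higher in PrE cells, at 0 to 1.04 CPM in the epiblast against 4.64 to 36.5 CPM (log2 fold change 6.00 ± 1.46, adjusted p = 0.0214). Among glutathione and redox genes, 20 of 28 were tested, 3 were higher in PrE cells and 4 in epiblast cells. Gstm5 had 2.43 to 20.4 CPM in the PrE (ratio of summed CPM 229.7, 95% counting interval 41.1 to 9082, adjusted p = 0.00873) and Gsta4 577 to 977 CPM in the epiblast against 64.3 to 124 CPM (log2 fold change −2.97 ± 0.24, adjusted p = 1.12e-04), and reads of such near copies may be shared. Calls were lost without 1 embryo for Ddx4 (embryo 1, 4 or 5, up to 0.0727 without embryo 5) and Gstm5 (0.0622 without embryo 3).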
